A study of Rattus norvegicus with 9 samples.

Results

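The genes described here are the 51 ribosome biogenesis factors that carry the Gene Ontology process term of exactly that name in the annotation column of the authors' expression table. The term stood on 65 of the 14636 rows. Of these, 12 encode ribosomal proteins (symbols starting with Rpl or Rps) and were set apart, and 2 (LOC306079 and LOC500148) did not reach 1 FPKM in at least 3 libraries. Every level below is in FPKM, a fragment count scaled by transcript length and by library size. The rule used level and annotation, not a difference between groups. Both rows that missed its threshold were well below it: LOC500148 stood at 0 to 0.28 FPKM over the 9 libraries, and LOC306079 was listed at 0 in every library.

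A ribosome is built in the nucleolus. RNA polymerase I transcribes one long precursor RNA, small nucleolar ribonucleoproteins (snoRNPs) modify it, and the small subunit (SSU) processome cleaves and folds the part that becomes the 40S subunit. Another set of factors matures the 60S subunit, and the RNA exosome trims and degrades the spacer RNA. Heart muscle cells raise ribosome production when they grow, and MYC is a well known transcriptional activator of these genes. YAP is the transcriptional co-activator at the end of the Hippo pathway and acts mainly through TEAD factors. LLGL1 and LLGL2 are mammalian homologues of the fly polarity protein Lethal giant larvae.

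The libraries were made from cardiomyocytes of 2-day-old Sprague Dawley rats, grown in medium with 15% serum and transfected 16 h later. RNA was taken 48 h after transfection and sequenced as poly-A libraries. There were 3 libraries per group: Llgl1/2 siRNA (against Llgl1 and Llgl2 together), Yap siRNA, and control siRNA. For each target gene 2 siRNAs were used at 25 nM each, so the Llgl1/2 group, which has a pair of target genes, may have received a larger total dose than the others, and dose and target cannot then be told apart. The cells were primary cultures that were not sorted. Nothing in the labels says that the 3 libraries of a group came from separate cultures, so each p-value rests on a spread among libraries that may be technical. Both knockdown groups are set against the same control libraries.

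The knockdowns were visible in the targeted genes. Llgl1 had 4.76, 4.65 and 4.75 FPKM after Llgl1/2 siRNA, 9.50, 7.14 and 9.88 FPKM after Yap siRNA, and 12.1, 11.9 and 12.4 FPKM after control siRNA, which is a log2 change of -1.20 ± 0.11 (limma adjusted p = 3.9e-06) in the Llgl1/2 group. Llgl2 had 6.51, 7.33 and 7.62 FPKM after Llgl1/2 siRNA, 8.11, 8.69 and 12.01 FPKM after Yap siRNA, and 13.9, 12.04 and 14.9 FPKM after control siRNA, and its Llgl1/2 group stood at -0.84 ± 0.13 (limma adjusted p = 0.00025) on the same scale. Yap1 had 46.5, 53.7 and 56.8 FPKM after Llgl1/2 siRNA, 5.90, 4.43 and 6.0 FPKM after Yap siRNA, and 55.3, 60.8 and 63.1 FPKM after control siRNA, and its Yap group stood at -3.24 ± 0.11 (limma adjusted p = 1.7e-10). Both Llgl genes also fell in the Yap group, with log2 changes of -0.43 ± 0.11 (limma adjusted p = 0.0064) for Llgl1 and -0.48 ± 0.13 (limma adjusted p = 0.0086) for Llgl2. Here and below a log2 change is a difference of mean log2(FPKM + 1), which understates the change of low genes, ± is its standard error (SE), and a gene is said to have risen or fallen when its Benjamini-Hochberg adjusted p, over the 10789 genes with at least 1 FPKM in 3 libraries, was under 0.05 in 1 limma fit of all 9 libraries. The summed level of 13 working cardiomyocyte markers was 36036 to 39903 FPKM after Llgl1/2 siRNA, 40935 to 42694 FPKM after Yap siRNA and 30114 to 34593 FPKM after control siRNA. The libraries summed to 572884 to 620119 FPKM over all rows, with 10449 to 10565 genes at 1 FPKM or more in each.

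The ribosome biogenesis factors were mostly well expressed. Their mean level after control siRNA reached 219 FPKM for Pa2g4, a growth regulator that binds ribosomes. The median member stood at 22.9 FPKM, against 14.5 FPKM for all tested genes, and 35 of the 51 were above that second value. Summed over the 51 genes, the libraries held 1741, 1625 and 1643 FPKM after Llgl1/2 siRNA, 1936, 1896 and 1724 FPKM after Yap siRNA, and 1955, 1915 and 1806 FPKM after control siRNA. All 3 Llgl1/2 libraries lay below all 3 control libraries in this sum, while the Yap and control libraries overlapped. The median member read 19.0, 19.5 and 19.6 FPKM after Llgl1/2 siRNA, 20.04, 17.2 and 20.0 FPKM after Yap siRNA, and 23.4, 22.6 and 21.4 FPKM after control siRNA, so by this measure both knockdowns lay below the controls. The median of all tested genes was 14.4 to 14.8 FPKM after Llgl1/2 siRNA, 13.4 to 14.1 FPKM after Yap siRNA and 14.3 to 14.7 FPKM after control siRNA. In this measure too the Yap libraries were below the controls, whereas the Llgl1/2 libraries overlapped them.

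**Figure D1:**
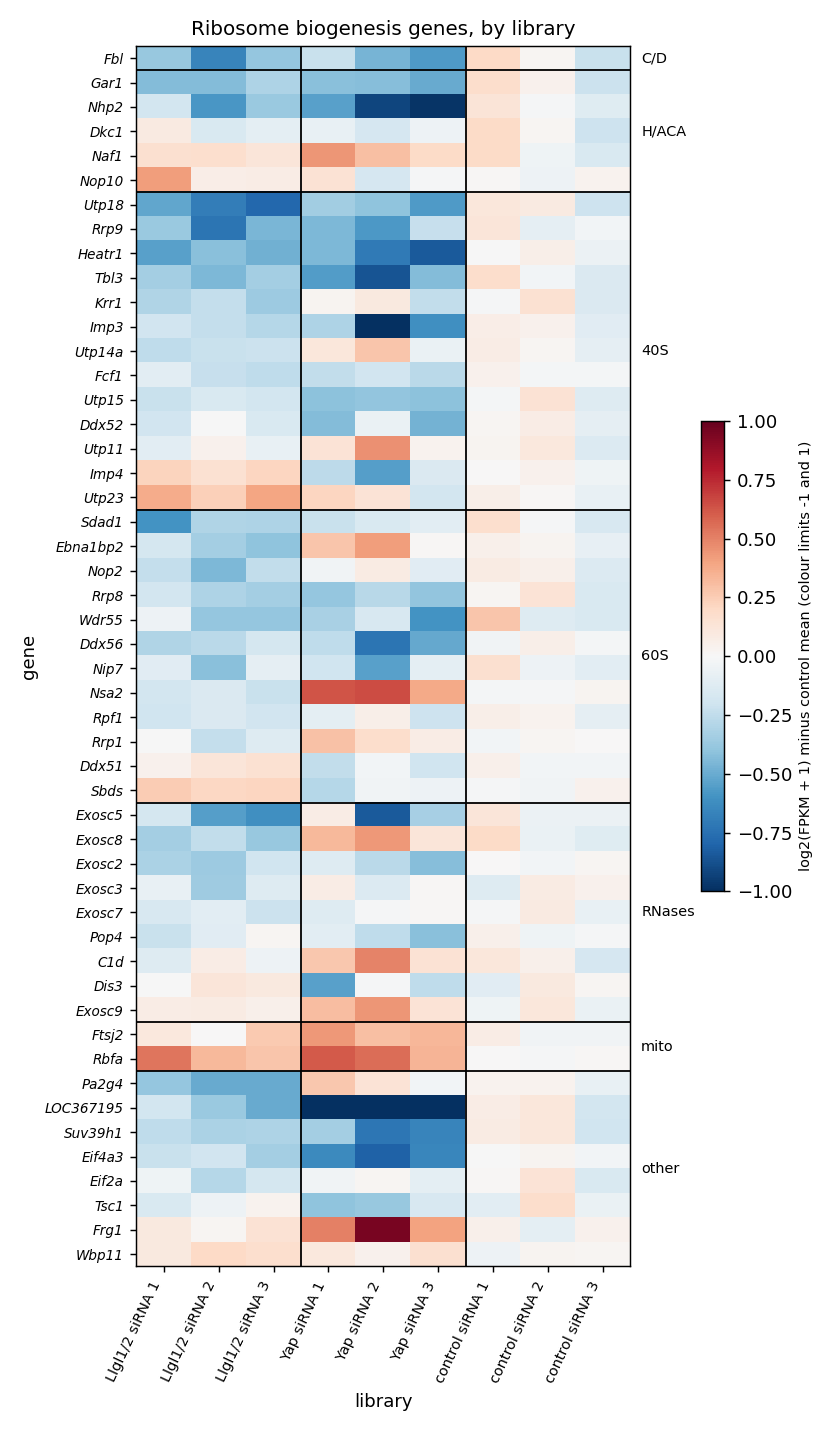
Level of 50 of the 51 ribosome biogenesis factors in each library, as log2(FPKM + 1) minus the mean of the 3 control libraries, with genes grouped by role and Llgl1/2 siRNA, Yap siRNA and control siRNA libraries from left to right. Most genes of the snoRNP, SSU processome and 60S groups are below the control mean in each knockdown, while Nsa2 is above it only in the Yap libraries and Rbfa is above it in both.

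In the Llgl1/2 knockdown, 17 of the 51 factors fell (33.3%, against 18.1% of all tested genes) and 3 rose (5.88%, against 22.1% of all tested genes). The median log2 change of the 51 was -0.19, against 0.03 for all tested genes, and 38 of the 51 were below zero. The changes were small: the range was -0.66 for Utp18 to 0.38 for Rbfa, and no member reached a doubling or a halving. The number that fell was 10 when Llgl1/2 library 2 or 3 was left out, 8 when control library 1 was and 9 when control library 2 was. The number that rose was 1 when Llgl1/2 library 1, Llgl1/2 library 3 or control library 2 was left out. The calls over all genes thinned as well, to 1575 lower and 1833 higher without Llgl1/2 library 2, against 1958 lower and 2380 higher with all libraries.

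After Yap siRNA, 20 of the 51 factors fell (39.2%, against 27.5% of all tested genes) and 8 rose (15.7%, against 20.5% of all tested genes). The median log2 change was -0.16, against -0.06 for all tested genes, with 36 of the 51 below zero and a range of -3.31 for LOC367195 to 0.62 for Frg1. Without LOC367195, a ribosomal protein pseudogene described below, 19 of 50 fell. With the libraries scaled by median ratios, 15 fell and 10 rose, while over all tested genes 2530 were lower and 2596 higher, against 2964 lower and 2217 higher as deposited. The number that rose was 5 without Yap library 1 or 2 or control library 2 or 3.

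Set directly against each other, Llgl1/2 siRNA gave higher levels than Yap siRNA for 9 of the 51 factors (17.6%, against 28.0% of all tested genes) and lower levels for 11 (21.6%, against 19.0%). The median difference was 0.04, against 0.08 for all tested genes. With median-ratio scaling it was -0.05, with 6 higher and 15 lower, so the sign of this median depends on how the libraries are scaled. The calls over all tested genes moved the same way, from mostly higher to mostly lower, as given at the end. Leaving out Llgl1/2 library 2 left 5 higher, leaving out Yap library 2 left 7 lower, and the median was -0.02 without Llgl1/2 library 1 or Yap library 2 and -0.01 without Yap library 3. In the order of the 3 group means, control was highest for 30 of the 51 genes, Yap siRNA for 13 and Llgl1/2 siRNA for 8. The order Yap, Llgl1/2, control from low to high held for 18 genes (35.3%, against 20% of all tested genes), and Llgl1/2, Yap, control for 12 (23.5%, against 14.4%). For 16 of the 51 genes neither knockdown passed the test against control, and for 12 no comparison did. The matching shares of all tested genes were not counted, so these numbers cannot be called few or many.

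**Figure D2:**
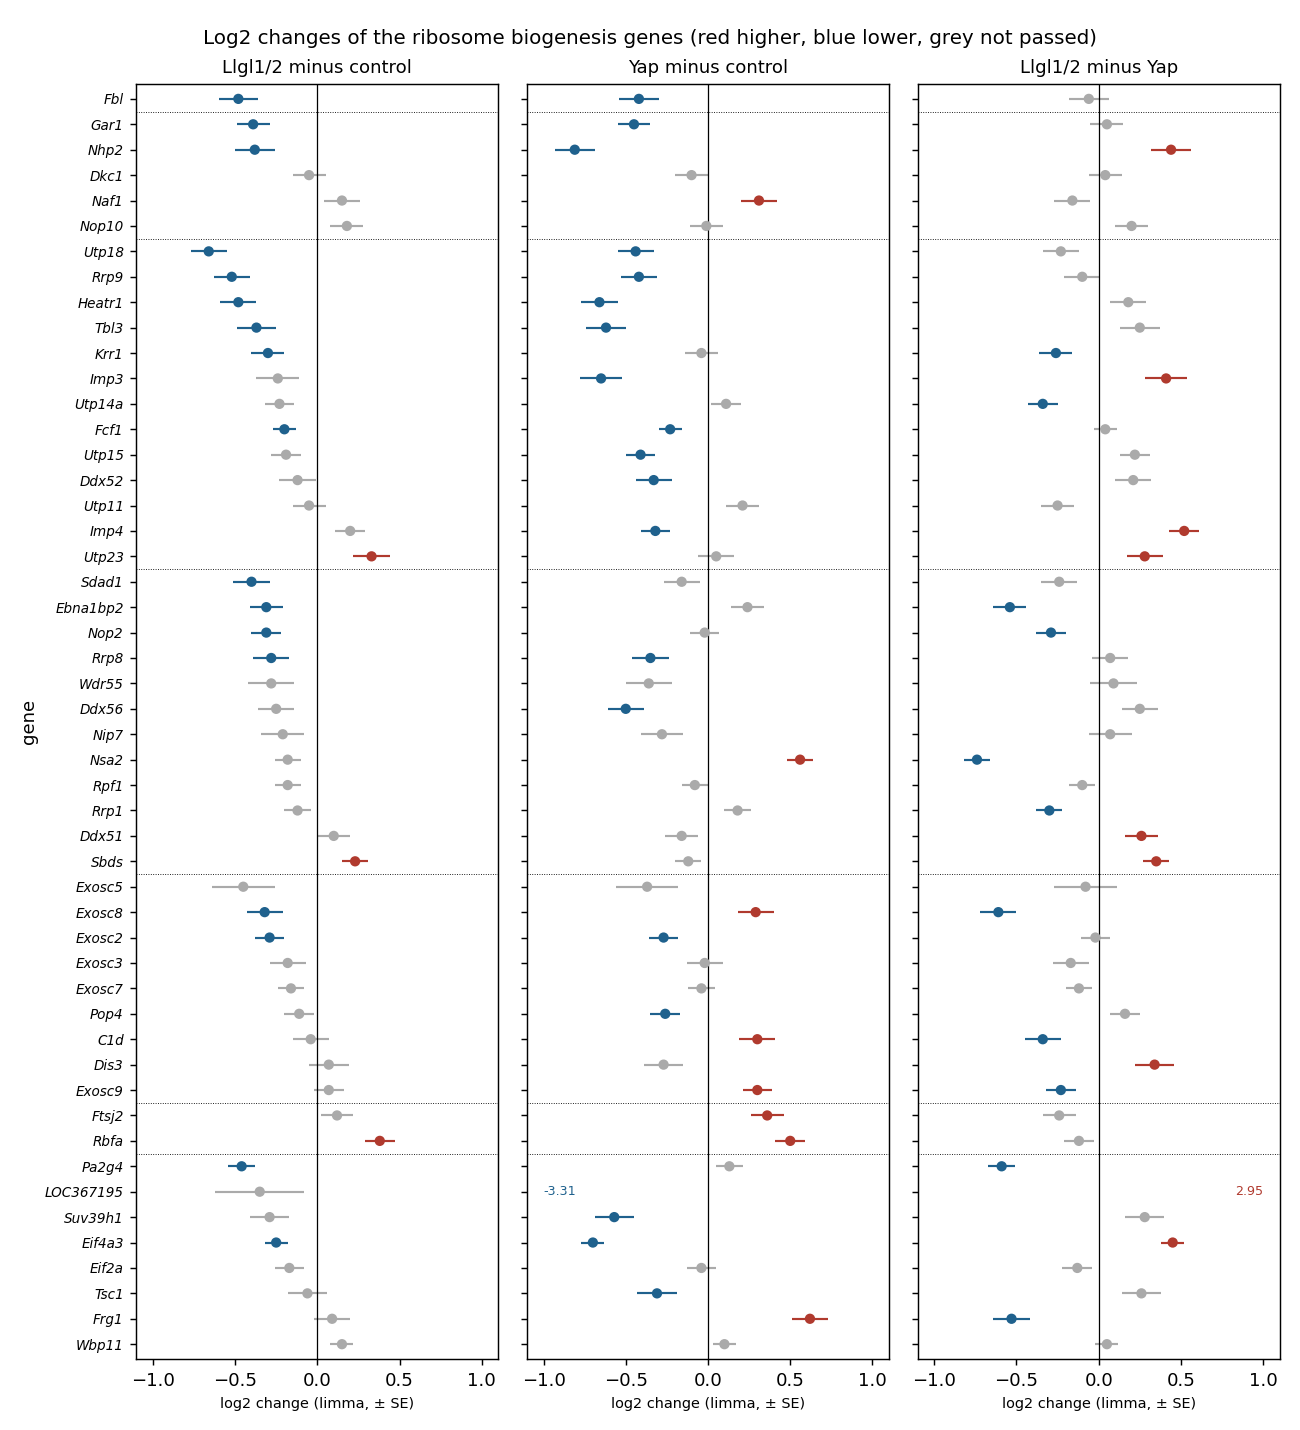
Log2 change of 50 of the 51 ribosome biogenesis factors (points) with its standard error (bars) for Llgl1/2 minus control, Yap minus control and Llgl1/2 minus Yap siRNA, coloured red or blue where the limma adjusted p was under 0.05 and grey where it was not. Utp18 has the largest fall after Llgl1/2 siRNA at -0.66, and LOC367195, at -3.31 after Yap siRNA and 2.95 between the knockdowns, is written as text because it lies off the scale.

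The promoters of the factors were searched for short sequences bound by MYC, by ETS factors and by TEAD factors, and the windows that hold the MYC site are shown because MYC is a known activator of these genes. RefSeq promoter windows of the GRCr8 build, from 250 bases before to 50 bases after the start, were found for 40 of the 51 genes. The authors' table was made on rn6, so these positions are of GRCr8 only. The E-box CACGTG, the sequence that MYC and its partner MAX bind and which reads the same on both strands, was held by 8 of the 40 (20%), against 9.86% of 8782 promoters of tested genes and 7.08% of all 27457 promoters. The windows around it, with the E-box in capitals and each read on its gene's strand, were:
Utp18, chr10:79335830-79335859, minus strand: gtgagtgtcggtCACGTGgttcgaggcagc
Utp18, chr10:79335737-79335766, minus strand: gcagtggggctcCACGTGaacgtctgcgtt
Fbl, chr1:92597416-92597445, plus strand: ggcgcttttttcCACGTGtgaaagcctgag
Nop2, chr4:159618986-159619015, plus strand: tgaactcttccccaagtgCACGTGgagcgg
Ebna1bp2, chr5:137433552-137433581, plus strand: gcgtcttgctggCACGTGgagtggcagccg
Rrp8, chr1:169500443-169500472, minus strand: ggacgcgcgctaCACGTGggccagagcgta
Rrp1, chr20:10260552-10260581, plus strand: tggcgtgacgcaCACGTGtcgtcactcgag
Dkc1, chrX:157751455-157751484, plus strand: agcgtcccggcgCACGTGcgggccccaccc
Exosc5, chr1:90295853-90295882, plus strand: taaacgccgagcCACGTGctagggccactt

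Of these 8 genes, 5 fell after Llgl1/2 siRNA (Utp18, Fbl, Nop2, Ebna1bp2 and Rrp8) and none rose, with a median log2 change of -0.31 and all 8 below zero. Of all tested genes 18.1% fell and 22.1% rose. The calls of Nop2, Ebna1bp2 and Rrp8 were each lost on leaving out single libraries, as given with each gene below. All 5 genes that fell also hold the ETS core described next, so in them the motifs cannot be told apart. Dkc1, which holds both motifs, and Rrp1 and Exosc5, which hold the E-box alone, did not pass. Falls among E-box holders over all tested genes were not counted. Of the 32 without the E-box, 9 fell and 2 rose, with a median of -0.19. After Yap siRNA 3 of the 8 fell (37.5%), against 13 of the 32 (40.6%) and 27.5% of all tested genes. The medians were -0.23 with the E-box and -0.2 without it. The positions differ: the E-box of Rrp1 begins 16 bases before the start and that of Exosc5 44 bases before it, whereas those of Fbl, Nop2, Ebna1bp2 and Rrp8 lie within the first 50 transcribed bases. Utp18 holds a copy on each side of its start.

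The core of sites bound by ETS factors, CCGGAAG searched on both strands, was held by 21 of the 40 promoters (52.5%), against 19% of promoters of tested genes and 9.63% of all promoters. Of these, 8 of the 21 holders fell after Llgl1/2 siRNA and 8 fell after Yap siRNA, against 6 and 8 of the 19 without it. Over all tested genes 18.1% fell after Llgl1/2 siRNA and 27.5% after Yap siRNA. Examples from genes described below, with the core in capitals (written CTTCCGG where it lies on the opposite strand), were:
Gar1, chr2:221056781-221056810, minus strand: gcaccacacttCCGGAAGcgtcgagtacgg
Nhp2, chr10:36377989-36378018, plus strand: tgcttcataacCCGGAAGtgatctaggagg
Fbl, chr1:92597330-92597359, plus strand: gttgactccgaCTTCCGGgagaggggaggc
Imp4, chr9:44149920-44149949, plus strand: ctaatcgtggcCCGGAAGtcaaaggtttca
Sbds, chr12:32056567-32056596, plus strand: cggagtagggaCCGGAAGagccgcgcactc
Rbfa, chr18:75924089-75924118, minus strand: ctctcagctggCTTCCGGaggcacctgcat

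In Gar1 a second copy on the opposite strand overlaps the one shown by 4 letters. The TEAD core GGAATG, searched on both strands, was held by 2 of the 40 promoters (5%), those of Exosc2 and Ftsj2, against 11.6% of promoters of tested genes. A match says only that the letters are there, and none was tied to binding. A YY1 motif, searched as well, was held by 1 of the 40 promoters (2.5%, against 2% of promoters of tested genes), and a longer palindromic promoter motif by none (against 1.05%). The median GC content of the members' windows was 56.3%, against 61% for tested genes.

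**Figure D3:**
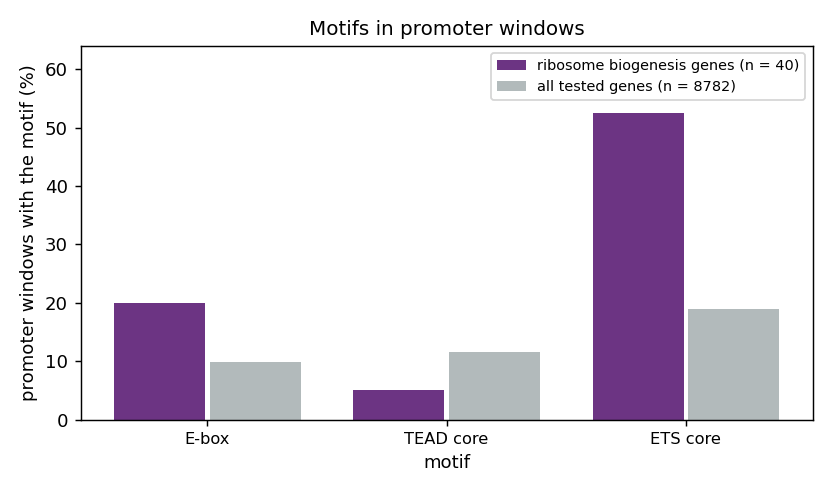
Share (%) of RefSeq GRCr8 promoter windows that hold the E-box, the TEAD core and the ETS core, for the 40 ribosome biogenesis genes with a window and for 8782 tested genes. The ETS core stands at 52.5% of the ribosome biogenesis genes against 19% of tested genes, and the TEAD core at 5% against 11.6%.

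Among the snoRNP proteins, the levels of Fbl and of a pair of H/ACA proteins were lower in both knockdowns while the H/ACA enzyme itself passed neither test. Fbl (fibrillarin), the methyltransferase of box C/D snoRNPs, had 72.6, 59.7 and 72.4 FPKM after Llgl1/2 siRNA, 81.02, 68.4 and 63.8 FPKM after Yap siRNA, and 109, 96.1 and 81.2 FPKM after control siRNA. Every library of both knockdowns lay below every control library, although the lowest control library, at 81.2 FPKM, was only just above the highest Yap library. The log2 change was -0.48 ± 0.12 (limma adjusted p = 0.0052) after Llgl1/2 siRNA and -0.42 ± 0.12 (limma adjusted p = 0.0087) after Yap siRNA.

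Gar1, a core protein of box H/ACA snoRNPs, which guide pseudouridylation, had 13.8, 13.9 and 15.2 FPKM after Llgl1/2 siRNA, 14.03, 13.97 and 13.2 FPKM after Yap siRNA, and 21.6, 19.6 and 16.3 FPKM after control siRNA. Again no knockdown library reached the lowest control library, and the log2 changes were -0.39 ± 0.10 (limma adjusted p = 0.0068) after Llgl1/2 siRNA and -0.45 ± 0.10 (limma adjusted p = 0.0023) after Yap siRNA. Nhp2, another core protein of the same particle, had 59.03, 44.6 and 51.7 FPKM after Llgl1/2 siRNA, 45.8, 35.1 and 33.5 FPKM after Yap siRNA, and 73.6, 66.8 and 61.6 FPKM after control siRNA. Both groups lay below the controls, with Yap lower on average, although Yap library 1 at 45.8 FPKM lay above Llgl1/2 library 2 at 44.6 FPKM. The log2 change was -0.38 ± 0.12 (limma adjusted p = 0.024) after Llgl1/2 siRNA and -0.81 ± 0.12 (limma adjusted p = 0.00012) after Yap siRNA, and the direct difference, Llgl1/2 over Yap, was 0.44 ± 0.12 (limma adjusted p = 0.010). The Llgl1/2 call was lost on leaving out Llgl1/2 library 2 or 3 or control library 1 or 2 (limma adjusted p = 0.058 to 0.11). Here and below, such lists of losses name only left-out libraries and changes of scaling. Several of these calls, this one included, were also lost under other alternatives, which are listed at the end.

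The catalytic subunit Dkc1 (dyskerin), the pseudouridine synthase, read 53.2, 44.9 and 46.7 FPKM after Llgl1/2 siRNA, 47.5, 44.5 and 48.2 FPKM after Yap siRNA, and 57.2, 50.7 and 43.2 FPKM after control siRNA. The 3 groups overlapped, and its log2 changes were -0.05 ± 0.10 (limma adjusted p = 0.69) after Llgl1/2 siRNA and -0.10 ± 0.10 (limma adjusted p = 0.43) after Yap siRNA. Nop10, the smallest core protein, read 142, 111 and 112 FPKM after Llgl1/2 siRNA, 118, 94.3 and 105 FPKM after Yap siRNA, and 107, 103 and 109 FPKM after control siRNA. All Llgl1/2 libraries were above the controls, but the log2 change of 0.18 ± 0.10 (limma adjusted p = 0.16) did not pass. Its difference between Llgl1/2 and Yap siRNA was 0.20 ± 0.10 (limma adjusted p = 0.12), and with replicate number as a block the adjusted p was 0.043. Naf1, the assembly factor that Gar1 replaces in the mature particle, read 9.46, 9.50 and 9.21 FPKM after Llgl1/2 siRNA, 11.7, 10.6 and 9.68 FPKM after Yap siRNA, and 9.68, 8.11 and 7.45 FPKM after control siRNA. It rose after Yap siRNA by 0.31 ± 0.11 (limma adjusted p = 0.028) although one Yap library equalled the highest control library to the second decimal, and the call was lost on leaving out Yap library 1 or 2 or control library 2 or 3 (limma adjusted p = 0.051 to 0.11). Naf1 was at 0.15 ± 0.11 (limma adjusted p = 0.29) after Llgl1/2 siRNA.

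The SSU processome and 40S assembly factors were the group with the most falls after Yap siRNA: 9 of 13 fell (against 27.5% of all tested genes) and none rose (against 20.5%), with a median log2 change of -0.33. It was also the largest role group, and the calls of Ddx52 and Fcf1 were lost with median-ratio scaling. Of 42 other SSU factors, described below, 33.3% fell after Yap siRNA. With Llgl1/2 siRNA 6 of the 13 fell (46.2%, against 18.1% of all tested genes) and 1 rose (7.69%, against 22.1%), with a median of -0.23. Utp18, a WD-repeat protein of the UTP-B complex, had 11.5, 10.1 and 9.33 FPKM after Llgl1/2 siRNA, 13.0, 12.5 and 11.1 FPKM after Yap siRNA, and 18.3, 18.02 and 14.5 FPKM after control siRNA. The controls were highest throughout, and the Llgl1/2 libraries were the lowest, apart from 1 that lay above the lowest Yap library. Utp18 changed by -0.66 ± 0.11 (limma adjusted p = 0.00038) on the log2 scale after Llgl1/2 siRNA and by -0.44 ± 0.11 (limma adjusted p = 0.0049) after Yap siRNA. The difference between the knockdowns was -0.23 ± 0.11 (limma adjusted p = 0.11), or adjusted p = 0.039 with replicate number as a block.

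Heatr1, the homologue of yeast Utp10, which works at the earliest step of assembly and in RNA polymerase I transcription, had 6.16, 6.80 and 6.47 FPKM after Llgl1/2 siRNA, 6.64, 5.40 and 4.84 FPKM after Yap siRNA, and 9.42, 9.87 and 9.01 FPKM after control siRNA. No knockdown library reached the lowest control library. Its log2 changes were -0.48 ± 0.11 (limma adjusted p = 0.0038) after Llgl1/2 siRNA and -0.66 ± 0.11 (limma adjusted p = 0.00028) after Yap siRNA. Rrp9, the protein specific to the U3 snoRNP that docks on the precursor RNA, had 18.4, 14.2 and 17.3 FPKM after Llgl1/2 siRNA, 17.5, 15.9 and 20.5 FPKM after Yap siRNA, and 26.4, 22.6 and 23.6 FPKM after control siRNA. Here too the controls stood above all 6 knockdown libraries, with changes of -0.52 ± 0.11 (limma adjusted p = 0.0023) after Llgl1/2 siRNA and -0.42 ± 0.11 (limma adjusted p = 0.0074) after Yap siRNA.

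Tbl3, the homologue of yeast Utp13 in the UTP-B complex, had 11.9, 10.97 and 11.9 FPKM after Llgl1/2 siRNA, 10.1, 7.97 and 11.1 FPKM after Yap siRNA, and 17.4, 15.01 and 13.8 FPKM after control siRNA. Both knockdowns lay below the controls. Its log2 change was -0.62 ± 0.12 (limma adjusted p = 0.00069) after Yap siRNA and -0.37 ± 0.12 (limma adjusted p = 0.021) after Llgl1/2 siRNA, where the call was lost on leaving out Llgl1/2 library 2 or control library 1 or 2 (limma adjusted p = 0.050 to 0.10). Utp15, of the UTP-A complex, ranged over 11.5 to 12.1 FPKM after Llgl1/2 siRNA, 9.96 to 10.1 FPKM after Yap siRNA and 12.4 to 15.1 FPKM after control siRNA. Only the Yap change passed, at -0.41 ± 0.09 (limma adjusted p = 0.0024).

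Imp3 and Imp4, which join the U3 snoRNP as partners of Mphosph10, separated the knockdowns. Imp3 had 27.99, 27.0 and 26.1 FPKM after Llgl1/2 siRNA, 25.6, 15.3 and 20.6 FPKM after Yap siRNA, and 33.6, 33.1 and 29.6 FPKM after control siRNA. It fell after Yap siRNA, with a log2 change of -0.65 ± 0.13 (limma adjusted p = 0.0014) and every Yap library below every other library. After Llgl1/2 siRNA the change was -0.24 ± 0.13 (limma adjusted p = 0.18), and the difference between the knockdowns was 0.41 ± 0.13 (limma adjusted p = 0.022), a call lost on leaving out Llgl1/2 library 1 or 2 or Yap library 2 (limma adjusted p = 0.053 to 0.079). Imp4 had 36.7, 35.04 and 36.5 FPKM after Llgl1/2 siRNA, 25.9, 21.1 and 28.3 FPKM after Yap siRNA, and 31.4, 32.3 and 30.4 FPKM after control siRNA. Its 3 groups did not overlap, with Llgl1/2 on top and Yap at the bottom: the change after Yap siRNA was -0.32 ± 0.09 (limma adjusted p = 0.012), that after Llgl1/2 siRNA was 0.20 ± 0.09 (limma adjusted p = 0.11), and the difference between them was 0.52 ± 0.09 (limma adjusted p = 0.00056).

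Utp23, a protein with a PIN-like domain that acts in early SSU processing, was the member of the group that rose after Llgl1/2 siRNA. It had 15.2, 13.8 and 15.5 FPKM after Llgl1/2 siRNA, 13.5, 12.7 and 10.02 FPKM after Yap siRNA, and 12.04, 11.7 and 10.9 FPKM after control siRNA, with every Llgl1/2 library above every other library. The change was 0.33 ± 0.11 (limma adjusted p = 0.024), a call lost on leaving out Llgl1/2 library 1 or 3 or control library 2 or 3 (limma adjusted p = 0.057 to 0.082), and after Yap siRNA it was 0.05 ± 0.11 (limma adjusted p = 0.70). The difference between the knockdowns, 0.28 ± 0.11 (limma adjusted p = 0.046), was lost on leaving out Llgl1/2 library 1, 2 or 3 or Yap library 3 or control library 1, 2 or 3 (limma adjusted p = 0.051 to 0.19) and with median-ratio scaling (adjusted p = 0.15) or quantile scaling (adjusted p = 0.16).

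**Figure D4:**
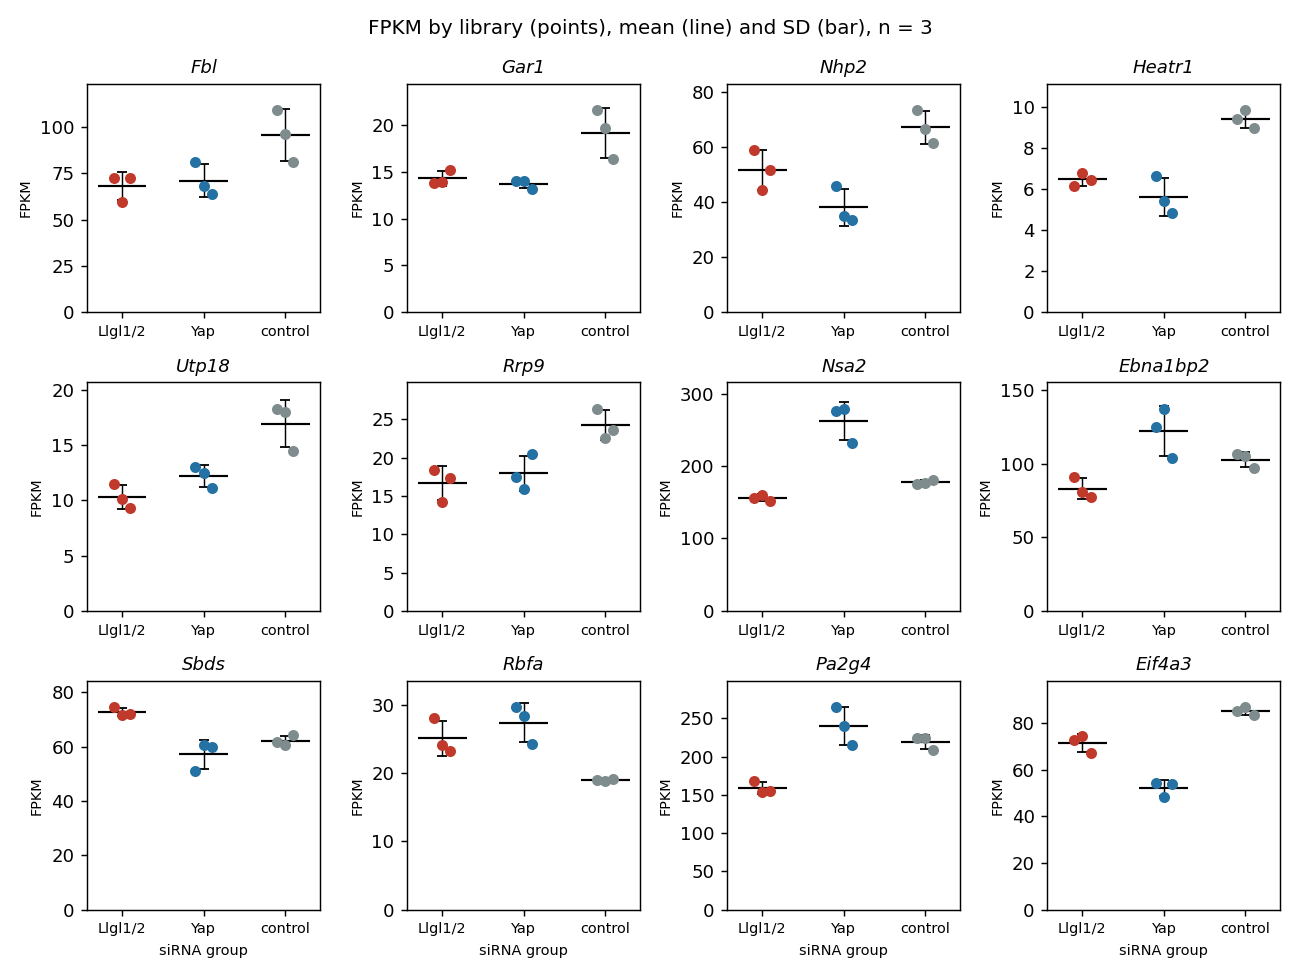
FPKM of 12 ribosome biogenesis factors in each library (points) with the group mean (line) and SD (bar, n = 3), for Llgl1/2 siRNA, Yap siRNA and control siRNA from left to right, on linear axes from 0. Fbl, Utp18 and Heatr1 have all knockdown libraries below all control libraries, while Nsa2 is high in the Yap libraries, at 231 to 279 FPKM.

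Fcf1, the nuclease homologue that yeast calls Utp24, fell in both knockdowns, with log2 changes of -0.20 ± 0.07 (limma adjusted p = 0.031) after Llgl1/2 siRNA and -0.23 ± 0.07 (limma adjusted p = 0.011) after Yap siRNA. Its levels were 67.9 to 75.3 FPKM after Llgl1/2 siRNA, 67.3 to 71.0 FPKM after Yap siRNA and 79.9 to 83.5 FPKM after control siRNA. The Llgl1/2 call was lost on leaving out Llgl1/2 library 2 or 3 or control library 1 or 2 (limma adjusted p = 0.065 to 0.12), and the Yap call was lost with median-ratio scaling (adjusted p = 0.059). Krr1, an assembly factor with RNA-binding KH domains, fell after Llgl1/2 siRNA with a log2 change of -0.30 ± 0.10 (limma adjusted p = 0.031), a call lost on leaving out Llgl1/2 library 1 or 3 or control library 1 or 2 (limma adjusted p = 0.065 to 0.14). After Yap siRNA its change was -0.04 ± 0.10 (limma adjusted p = 0.77), and the difference of -0.26 ± 0.10 (limma adjusted p = 0.049) between the knockdowns was lost on leaving out Llgl1/2 library 1, 2 or 3 or Yap library 1 or 2 or control library 1 (limma adjusted p = 0.062 to 0.16).

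Ddx52, an RNA helicase, fell after Yap siRNA with a log2 change of -0.33 ± 0.11 (limma adjusted p = 0.027), a call lost on leaving out Yap library 1 or 3 or control library 1 or 2 (limma adjusted p = 0.070 to 0.10) and with median-ratio scaling (adjusted p = 0.072) or quantile scaling (adjusted p = 0.083). Utp14a, a cofactor of the helicase Dhx37, had 18.98, 19.5 and 19.6 FPKM after Llgl1/2 siRNA, 24.9, 27.9 and 21.8 FPKM after Yap siRNA, and 24.1, 23.2 and 21.4 FPKM after control siRNA. All other libraries were above those of Llgl1/2 siRNA. It did not pass against control in either knockdown, at -0.23 ± 0.09 (limma adjusted p = 0.059) after Llgl1/2 siRNA and 0.11 ± 0.09 (limma adjusted p = 0.35) after Yap siRNA. It differed between them, by -0.34 ± 0.09 (limma adjusted p = 0.0080). Utp11 passed in no comparison. Its difference between the knockdowns was -0.25 ± 0.10 (limma adjusted p = 0.060), or adjusted p = 0.015 with replicate number as a block.

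The 12 factors of 60S assembly fell less uniformly. With Llgl1/2 siRNA 4 fell (33.3%, against 18.1% of all tested genes) and 1 rose (8.33%, against 22.1%), with a median log2 change of -0.23. In the Yap group 2 fell (16.7%, against 27.5%) and 1 rose (8.33%, against 20.5%), with a median of -0.14. The share that fell after Yap siRNA was thus below that of all tested genes. Nsa2, a component of the precursor 60S particle, had 156, 161 and 152 FPKM after Llgl1/2 siRNA, 276, 279 and 231 FPKM after Yap siRNA, and 175, 176 and 181 FPKM after control siRNA. Its 3 groups did not overlap: every Yap library was above and every Llgl1/2 library below the controls. The change after Yap siRNA was 0.56 ± 0.08 (limma adjusted p = 5.5e-05), that after Llgl1/2 siRNA was -0.18 ± 0.08 (limma adjusted p = 0.076), and the difference between the knockdowns was -0.74 ± 0.08 (limma adjusted p = 6.5e-06).

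Ebna1bp2, whose yeast homologue Ebp2 is needed for early 60S precursors, had 90.99, 81.1 and 77.6 FPKM after Llgl1/2 siRNA, 125, 138 and 104 FPKM after Yap siRNA, and 107, 105 and 97.3 FPKM after control siRNA. Llgl1/2 libraries were the lowest, and the Yap libraries reached above the controls in part. It fell after Llgl1/2 siRNA, with a log2 change of -0.31 ± 0.10 (limma adjusted p = 0.022), a call lost on leaving out Llgl1/2 library 2 or 3 or control library 1 or 2 (limma adjusted p = 0.069 to 0.093). After Yap siRNA the change was 0.24 ± 0.10 (limma adjusted p = 0.059), and Llgl1/2 differed from Yap siRNA by -0.54 ± 0.10 (limma adjusted p = 0.00048).

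Nop2, a methyltransferase that modifies the large ribosomal RNA, had 33.7, 28.9 and 33.4 FPKM after Llgl1/2 siRNA, 38.7, 42.1 and 36.7 FPKM after Yap siRNA, and 42.3, 41.2 and 36.2 FPKM after control siRNA. The Llgl1/2 libraries were below all others and the Yap libraries lay among the controls. Its log2 change was -0.31 ± 0.09 (limma adjusted p = 0.012) after Llgl1/2 siRNA, a call lost on leaving out Llgl1/2 library 2 or control library 1 or 2 (limma adjusted p = 0.051 to 0.069), and -0.02 ± 0.09 (limma adjusted p = 0.84) after Yap siRNA. The difference between the knockdowns was -0.29 ± 0.09 (limma adjusted p = 0.016), lost on leaving out Llgl1/2 library 2 or Yap library 2 (limma adjusted p = 0.056 to 0.086).

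Sdad1, the homologue of yeast Sda1, had 11.9, 14.8 and 14.8 FPKM after Llgl1/2 siRNA, 15.7, 16.5 and 17.1 FPKM after Yap siRNA, and 20.9, 18.3 and 16.5 FPKM after control siRNA. Lowest were the Llgl1/2 libraries, and the Yap libraries overlapped the controls. Sdad1 fell after Llgl1/2 siRNA, at -0.40 ± 0.11 (limma adjusted p = 0.0083) on the log2 scale. Its change after Yap siRNA was -0.16 ± 0.11 (limma adjusted p = 0.23). Rrp8, a nucleolar methyltransferase, fell in both, with log2 changes of -0.28 ± 0.11 (limma adjusted p = 0.050) after Llgl1/2 siRNA and -0.35 ± 0.11 (limma adjusted p = 0.013) after Yap siRNA. The Llgl1/2 value sits at the threshold and was lost on leaving out Llgl1/2 library 2 or 3 or Yap library 1 or 3 or control library 1 or 2 (limma adjusted p = 0.052 to 0.20), and the Yap value was lost on leaving out control library 2 (limma adjusted p = 0.070) and with quantile scaling (adjusted p = 0.065). Ddx56, an RNA helicase, had 19.3, 19.8 and 21.2 FPKM after Llgl1/2 siRNA, 20.04, 14.1 and 16.6 FPKM after Yap siRNA, and 23.4, 25.04 and 23.7 FPKM after control siRNA. Both knockdowns lay below the controls. Ddx56 fell after Yap siRNA, at -0.50 ± 0.11 (limma adjusted p = 0.0016) on the log2 scale. After Llgl1/2 siRNA Ddx56 was at -0.25 ± 0.11 (limma adjusted p = 0.076).

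Sbds, which helps release the anti-association factor Eif6 from new 60S subunits and is mutated in Shwachman-Diamond syndrome, rose after Llgl1/2 siRNA. It had 74.4, 71.8 and 72.1 FPKM after Llgl1/2 siRNA, 50.9, 60.5 and 60 FPKM after Yap siRNA, and 61.7, 60.5 and 64.1 FPKM after control siRNA, and all Llgl1/2 libraries lay above all others. The rise was 0.23 ± 0.08 (limma adjusted p = 0.030), but the call was lost on leaving out Llgl1/2 library 1, 2 or 3 or control library 1 or 2 (limma adjusted p = 0.065 to 0.098) and with median-ratio scaling (adjusted p = 0.065). After Yap siRNA the change was -0.12 ± 0.08 (limma adjusted p = 0.20), and the difference between the knockdowns, 0.35 ± 0.08 (limma adjusted p = 0.0021), held under every alternative tried.

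Rrp1, a nucleolar protein of 60S assembly, had 32.4, 27.4 and 29.7 FPKM after Llgl1/2 siRNA, 39.9, 36.8 and 34.2 FPKM after Yap siRNA, and 31.9, 32.9 and 32.6 FPKM after control siRNA. The Yap libraries were above all others. It passed the test between the knockdowns, at -0.30 ± 0.08 (limma adjusted p = 0.0084), and in neither knockdown against control. Ddx51, another helicase, had 8.14, 8.63 and 8.86 FPKM after Llgl1/2 siRNA, 6.47, 7.69 and 6.75 FPKM after Yap siRNA, and 8.20, 7.70 and 7.73 FPKM after control siRNA. The Yap libraries were below all others, though 1 by a narrow margin. It differed between the knockdowns by 0.26 ± 0.10 (limma adjusted p = 0.040), which was lost on leaving out Llgl1/2 library 2 or 3 or Yap library 1 or 3 or control library 1 or 2 (limma adjusted p = 0.052 to 0.13) and with median-ratio scaling (adjusted p = 0.14) or quantile scaling (adjusted p = 0.24). Rpf1, Nip7 and Wdr55 passed in no comparison, with log2 changes of -0.18, -0.21 and -0.28 after Llgl1/2 siRNA and -0.08, -0.28 and -0.36 after Yap siRNA.

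Among the 9 exosome and ribonuclease genes, none rose (against 22.1% of all tested genes) and 2 fell (22.2%, against 18.1%) after Llgl1/2 siRNA. In the Yap group 3 rose (33.3%, against 20.5%) and 2 fell (22.2%, against 27.5%). The shares that fell were thus near those of all tested genes. Exosc8, a ring subunit of the RNA exosome, had 12.4, 13.3 and 12.03 FPKM after Llgl1/2 siRNA, 20.2, 21.9 and 17.5 FPKM after Yap siRNA, and 18.4, 15.2 and 14.6 FPKM after control siRNA. The Llgl1/2 libraries were the lowest, and the Yap libraries overlapped the controls through the highest control library. It fell after Llgl1/2 siRNA, with a log2 change of -0.32 ± 0.11 (limma adjusted p = 0.026), a call lost on leaving out Llgl1/2 library 1 or 3 or control library 1 (limma adjusted p = 0.061 to 0.13). After Yap siRNA it rose by 0.29 ± 0.11 (limma adjusted p = 0.034), a call lost on leaving out Yap library 1 or 2 or control library 2 or 3 (limma adjusted p = 0.081 to 0.12). The difference between the knockdowns was -0.61 ± 0.11 (limma adjusted p = 0.00036) and held under every alternative tried.

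Exosc9, another ring subunit, had 33.2, 33.4 and 32.6 FPKM after Llgl1/2 siRNA, 39.4, 43.2 and 34.8 FPKM after Yap siRNA, and 30.6, 34.1 and 30.01 FPKM after control siRNA. The Yap libraries were above all others. It rose after Yap siRNA by 0.30 ± 0.09 (limma adjusted p = 0.011). Its change after Llgl1/2 siRNA was 0.07 ± 0.09 (limma adjusted p = 0.56), and the difference between the knockdowns, -0.23 ± 0.09 (limma adjusted p = 0.040), was lost on leaving out Llgl1/2 library 1, 2 or 3 or Yap library 1 or 2 or control library 1 (limma adjusted p = 0.050 to 0.14). C1d, a cofactor of the nuclear exosome, had 9.10, 10.6 and 9.63 FPKM after Llgl1/2 siRNA, 12.3, 14.5 and 11.2 FPKM after Yap siRNA, and 10.9, 10.5 and 8.82 FPKM after control siRNA. Again the Yap libraries were the highest. It rose after Yap siRNA by 0.30 ± 0.11 (limma adjusted p = 0.040), a call lost on leaving out Llgl1/2 library 3 or Yap library 1 or 2 or control library 2 or 3 (limma adjusted p = 0.051 to 0.16). Its difference between the knockdowns, -0.34 ± 0.11 (limma adjusted p = 0.024), was lost on leaving out Llgl1/2 library 1 or 3 or Yap library 2 (limma adjusted p = 0.065 to 0.10).

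Exosc2, a cap subunit, fell in both, with log2 changes of -0.29 ± 0.09 (limma adjusted p = 0.019) after Llgl1/2 siRNA and -0.27 ± 0.09 (limma adjusted p = 0.021) after Yap siRNA. Its levels were 16.1 to 18.2 FPKM after Llgl1/2 siRNA, 15.4 to 19.1 FPKM after Yap siRNA and 20.6 to 21.4 FPKM after control siRNA. The first call was lost on leaving out Llgl1/2 library 1 or 2 or control library 1 (limma adjusted p = 0.051 to 0.076) and the second on leaving out Yap library 3 or control library 1 or 3 (limma adjusted p = 0.056 to 0.084) and with median-ratio scaling (adjusted p = 0.061) or quantile scaling (adjusted p = 0.052). Pop4, a subunit of RNase P and RNase MRP, fell after Yap siRNA with a log2 change of -0.26 ± 0.09 (limma adjusted p = 0.029), a call lost on leaving out Yap library 3 or control library 1, 2 or 3 (limma adjusted p = 0.051 to 0.12) and with median-ratio scaling (adjusted p = 0.079) or quantile scaling (adjusted p = 0.053). Dis3, the catalytic exoribonuclease, had 13.7, 15.1 and 14.8 FPKM after Llgl1/2 siRNA, 9.16, 13.7 and 11.4 FPKM after Yap siRNA, and 12.7, 14.8 and 13.95 FPKM after control siRNA. Yap libraries were below Llgl1/2 libraries, though the closest were 13.66 and 13.69 FPKM, and both groups overlapped the controls. It passed against control in neither knockdown, and its difference between them, 0.34 ± 0.12 (limma adjusted p = 0.033), was lost on leaving out Llgl1/2 library 2 or 3 or Yap library 1 or 3 (limma adjusted p = 0.058 to 0.16) and with median-ratio scaling (adjusted p = 0.11) or quantile scaling (adjusted p = 0.12). Exosc3, Exosc5 and Exosc7 passed in no comparison.

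Of the 2 genes for the mitochondrial ribosome, Rbfa rose in both knockdowns and Ftsj2 rose after Yap siRNA. Rbfa, which matures the small mitochondrial subunit, had 28.03, 24.1 and 23.2 FPKM after Llgl1/2 siRNA, 29.6, 28.4 and 24.2 FPKM after Yap siRNA, and 19.01, 18.8 and 19.1 FPKM after control siRNA. All knockdown libraries were above all controls, whose values lay between 18.8 and 19.1 FPKM. Its log2 change was 0.38 ± 0.09 (limma adjusted p = 0.0053) after Llgl1/2 siRNA and 0.50 ± 0.09 (limma adjusted p = 0.00058) after Yap siRNA. Ftsj2, named Mrm2 in the RefSeq table and a methyltransferase of the large mitochondrial ribosomal RNA, had 6.27, 5.78 and 7.09 FPKM after Llgl1/2 siRNA, 8.15, 7.34 and 7.53 FPKM after Yap siRNA, and 6.11, 5.59 and 5.61 FPKM after control siRNA. It rose after Yap siRNA, with a log2 change of 0.36 ± 0.10 (limma adjusted p = 0.011) and all Yap libraries highest, and was at 0.12 ± 0.10 (limma adjusted p = 0.37) after Llgl1/2 siRNA.

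The 9 other genes that carry the term have main roles elsewhere or a broader one. Pa2g4, also called EBP1, had 168, 154 and 154 FPKM after Llgl1/2 siRNA, 264, 241 and 215 FPKM after Yap siRNA, and 225, 225 and 209 FPKM after control siRNA. The Llgl1/2 libraries were below every other library and the Yap libraries spread around the controls. It fell after Llgl1/2 siRNA, with a log2 change of -0.46 ± 0.08 (limma adjusted p = 0.00051), was at 0.13 ± 0.08 (limma adjusted p = 0.21) after Yap siRNA, and differed between the knockdowns by -0.59 ± 0.08 (limma adjusted p = 5.8e-05).

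Eif4a3, the helicase at the centre of the exon junction complex, had 72.7, 74.4 and 66.95 FPKM after Llgl1/2 siRNA, 54.4, 48.2 and 53.7 FPKM after Yap siRNA, and 84.97, 86.7 and 83.4 FPKM after control siRNA. The 3 groups did not overlap, with Yap lowest and control highest. The log2 change was -0.25 ± 0.07 (limma adjusted p = 0.014) after Llgl1/2 siRNA and -0.70 ± 0.07 (limma adjusted p = 4.4e-06) after Yap siRNA. The Llgl1/2 call was lost on leaving out Llgl1/2 library 3 or control library 2 (limma adjusted p = 0.051 to 0.075), and the difference of 0.45 ± 0.07 (limma adjusted p = 0.00022) between the knockdowns held under every alternative tried.

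Frg1, a nuclear protein linked to RNA processing, had 39.6, 37.4 and 40.8 FPKM after Llgl1/2 siRNA, 52.7, 72.1 and 49.2 FPKM after Yap siRNA, and 38.2, 34.4 and 38.1 FPKM after control siRNA. Its Yap libraries were above all others, with library 2 well above the remaining pair. The rise after Yap siRNA was 0.62 ± 0.11 (limma adjusted p = 0.00057), the change after Llgl1/2 siRNA 0.09 ± 0.11 (limma adjusted p = 0.56), and the difference between the knockdowns -0.53 ± 0.11 (limma adjusted p = 0.0019). Suv39h1, a histone H3 lysine 9 methyltransferase that also acts at ribosomal DNA, had 8.02, 7.63 and 7.65 FPKM after Llgl1/2 siRNA, 7.46, 5.51 and 5.80 FPKM after Yap siRNA, and 10.4, 10.6 and 8.36 FPKM after control siRNA. Both knockdowns lay below the controls: the change was -0.57 ± 0.12 (limma adjusted p = 0.0015) after Yap siRNA and -0.29 ± 0.12 (limma adjusted p = 0.069) after Llgl1/2 siRNA. The difference between them was 0.28 ± 0.12 (limma adjusted p = 0.070), or adjusted p = 0.047 with replicate number as a block. Tsc1, which with Tsc2 restrains the growth kinase mTORC1, fell after Yap siRNA with a log2 change of -0.31 ± 0.12 (limma adjusted p = 0.040), a call lost on leaving out Llgl1/2 library 2 or Yap library 1 or 2 or control library 2 or 3 (limma adjusted p = 0.051 to 0.18) and with median-ratio scaling (adjusted p = 0.071) or quantile scaling (adjusted p = 0.11).

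LOC367195 is named Rpl7-ps3, a pseudogene of the ribosomal protein gene Rpl7, in the RefSeq table, and its symbol did not match the rule that set ribosomal proteins apart. It had 25.3, 22.04 and 19.95 FPKM after Llgl1/2 siRNA, 3.20, 2.66 and 0.77 FPKM after Yap siRNA, and 30.3, 31.2 and 25.1 FPKM after control siRNA. The Yap libraries were far below all others, with a change of -3.31 ± 0.27 (limma adjusted p = 9.3e-06), and after Llgl1/2 siRNA the change was -0.35 ± 0.27 (limma adjusted p = 0.34). Reads of a pseudogene can be shared with its parent, so this value is uncertain. Rpl7 itself had 921, 869 and 850.4 FPKM after Llgl1/2 siRNA, 1162, 1171 and 1005 FPKM after Yap siRNA, and 967, 911 and 897 FPKM after control siRNA, with a rise of 0.26 ± 0.08 (limma adjusted p = 0.013) after Yap siRNA. Wbp11 and Eif2a passed in no comparison.

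The 12 ribosomal protein genes that carry the same term, set apart above, were counted in the same way. After Yap siRNA 8 of the 12 rose (against 20.5% of all tested genes) and 1 fell (against 27.5%), with a median log2 change of 0.30. The Llgl1/2 knockdown had none higher (against 22.1% of all tested genes) and 1 lower (against 18.1%), with a median of -0.09. Directly compared, 10 of the 12 were lower after Llgl1/2 siRNA than after Yap siRNA (against 19.0% of all tested genes). Near-identical pseudogene copies of ribosomal protein genes can share reads, so these values carry that doubt as well.

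Other genes of the same pathway, which do not carry the term in the authors' table, were taken from role lists of textbook factors, and 161 of them were tested. With Llgl1/2 siRNA 53 fell (32.9%, against 18.1% of all tested genes) and 9 rose (5.59%, against 22.1%), with a median log2 change of -0.17. After Yap siRNA 42 fell (26.1%, against 27.5% of all tested genes) and 19 rose (11.8%, against 20.5%), with a median of -0.11. The share that fell after Yap siRNA was thus near that of all tested genes.

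By role, 27 of 62 other genes of the 60S list fell (43.5%, against 18.1% of all tested genes) and 2 rose (3.23%, against 22.1%) after Llgl1/2 siRNA. In the Yap group 14 fell (22.6%, against 27.5%) and 7 rose (11.3%, against 20.5%). Rsl24d1, the homologue of yeast Rlp24 in 60S precursors, averaged 20.7 ± 1.59 FPKM after Llgl1/2 siRNA, 29.4 ± 2.01 FPKM after Yap siRNA and 46.4 ± 2.59 FPKM after control siRNA (SD, n = 3 each), a change of -1.13 ± 0.08 (limma adjusted p = 6.4e-07) after Llgl1/2 siRNA and -0.64 ± 0.08 (limma adjusted p = 2.9e-05) after Yap siRNA. Pak1ip1 averaged 22.4 ± 1.52 FPKM after Llgl1/2 siRNA, 39.7 ± 5.59 FPKM after Yap siRNA and 43.7 ± 3.00 FPKM after control siRNA, with a change of -0.93 ± 0.10 (limma adjusted p = 9.9e-06) after Llgl1/2 siRNA and -0.14 ± 0.10 (limma adjusted p = 0.25) after Yap siRNA. Ncl (nucleolin), the abundant nucleolar protein, differed between the knockdowns by -0.81 ± 0.09 (limma adjusted p = 1.3e-05), with -0.49 ± 0.09 (limma adjusted p = 0.00087) after Llgl1/2 siRNA and 0.32 ± 0.09 (limma adjusted p = 0.012) after Yap siRNA. Nifk, a nucleolar partner of Ki-67, was at -0.17 ± 0.08 (limma adjusted p = 0.089) after Llgl1/2 siRNA and -0.49 ± 0.08 (limma adjusted p = 0.00013) after Yap siRNA.

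Of 42 other SSU factors, 15 fell (35.7%, against 18.1% of all tested genes) and none rose (against 22.1%) after Llgl1/2 siRNA. In the Yap group 14 fell (33.3%, against 27.5%) and 3 rose (7.14%, against 20.5%). Wbscr22, the methyltransferase that yeast calls Bud23, averaged 9.70 ± 0.953 FPKM after Llgl1/2 siRNA, 20.5 ± 2.20 FPKM after Yap siRNA and 22.6 ± 3.13 FPKM after control siRNA, a change of -1.13 ± 0.11 (limma adjusted p = 6.8e-06) after Llgl1/2 siRNA and -0.13 ± 0.11 (limma adjusted p = 0.37) after Yap siRNA. Bysl, a 40S maturation factor, fell in both knockdowns, at -0.81 ± 0.09 (limma adjusted p = 1.6e-05) after Llgl1/2 siRNA and -0.27 ± 0.09 (limma adjusted p = 0.024) after Yap siRNA. The UTP-A protein Wdr75 also fell in both, at -0.55 ± 0.08 (limma adjusted p = 0.00013) after Llgl1/2 siRNA and -0.79 ± 0.08 (limma adjusted p = 3.3e-06) after Yap siRNA. The kinase Riok3 was at -0.13 ± 0.07 (limma adjusted p = 0.17) after Llgl1/2 siRNA and -0.50 ± 0.07 (limma adjusted p = 6.4e-05) after Yap siRNA. Nop14 rose after Yap siRNA, at 0.31 ± 0.08 (limma adjusted p = 0.004). Its change after Llgl1/2 siRNA was -0.19 ± 0.08 (limma adjusted p = 0.054).

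Of 9 other box C/D genes, 4 fell (44.4%, against 18.1% of all tested genes) and none rose (against 22.1%) after Llgl1/2 siRNA. In the Yap group 1 fell (11.1%, against 27.5%) and 2 rose (22.2%, against 20.5%). Nolc1 was at -0.36 ± 0.08 (limma adjusted p = 0.0028) after Llgl1/2 siRNA and 0.17 ± 0.08 (limma adjusted p = 0.094) after Yap siRNA. For Nop58, a core protein beside fibrillarin, the values were -0.37 ± 0.09 (limma adjusted p = 0.0043) after Llgl1/2 siRNA and 0.06 ± 0.09 (limma adjusted p = 0.61) after Yap siRNA. Nop56 rose after Yap siRNA, at 0.30 ± 0.09 (limma adjusted p = 0.012). Its change after Llgl1/2 siRNA was -0.23 ± 0.09 (limma adjusted p = 0.053). Nhp2l1 fell in both, at -0.27 ± 0.10 (limma adjusted p = 0.045) after Llgl1/2 siRNA and -0.51 ± 0.10 (limma adjusted p = 0.0010) after Yap siRNA. Znhit6 was at 0.03 ± 0.08 (limma adjusted p = 0.82) after Llgl1/2 siRNA and 0.35 ± 0.08 (limma adjusted p = 0.0036) after Yap siRNA. The 1 other H/ACA gene tested, Shq1, passed in no comparison. Of 13 other exosome and ribonuclease genes, 4 fell (30.8%, against 18.1% of all tested genes) and 1 rose (7.69%, against 22.1%) after Llgl1/2 siRNA. In the Yap group 6 fell (46.2%, against 27.5%) and 1 rose (7.69%, against 20.5%). The helicase Skiv2l2 fell in both, at -0.32 ± 0.07 (limma adjusted p = 0.0030) after Llgl1/2 siRNA and -0.34 ± 0.07 (limma adjusted p = 0.0013) after Yap siRNA. So did the exonuclease Eri1, at -0.34 ± 0.08 (limma adjusted p = 0.0041) after Llgl1/2 siRNA and -0.52 ± 0.08 (limma adjusted p = 0.00015) after Yap siRNA. Rpp25 and Rpp30 each went opposite ways. Rpp25 was at -0.31 ± 0.10 (limma adjusted p = 0.02) after Llgl1/2 siRNA and 0.53 ± 0.10 (limma adjusted p = 0.00051) after Yap siRNA. Rpp30 was at 0.24 ± 0.09 (limma adjusted p = 0.045) after Llgl1/2 siRNA and -0.24 ± 0.09 (limma adjusted p = 0.044) after Yap siRNA.

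Of 17 genes of RNA polymerase I and its factors, 3 fell (17.6%, against 18.1% of all tested genes) and none rose (against 22.1%) after Llgl1/2 siRNA. In the Yap group 4 fell (23.5%, against 27.5%) and 3 rose (17.6%, against 20.5%). Neither share of falls exceeded that of all tested genes. Tcof1 (treacle), which works with the polymerase in the nucleolus, averaged 11.5 ± 0.678 FPKM after Llgl1/2 siRNA, 19.3 ± 0.548 FPKM after Yap siRNA and 15.9 ± 1.12 FPKM after control siRNA, a change of -0.44 ± 0.09 (limma adjusted p = 0.0013) after Llgl1/2 siRNA and 0.27 ± 0.09 (limma adjusted p = 0.019) after Yap siRNA. Ubtf, the upstream binding factor of ribosomal DNA, differed between the knockdowns by -0.52 ± 0.08 (limma adjusted p = 0.00018), with -0.11 ± 0.08 (limma adjusted p = 0.30) after Llgl1/2 siRNA and 0.41 ± 0.08 (limma adjusted p = 0.0010) after Yap siRNA. Of the polymerase subunits, Polr1e fell in both knockdowns, at -0.29 ± 0.10 (limma adjusted p = 0.032) after Llgl1/2 siRNA and -0.59 ± 0.10 (limma adjusted p = 0.00032) after Yap siRNA. Polr1d was at 0.01 ± 0.09 (limma adjusted p = 0.96) after Llgl1/2 siRNA and 0.49 ± 0.09 (limma adjusted p = 0.00064) after Yap siRNA.

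In RNA polymerase III, which makes 5S ribosomal RNA and transfer RNA, 3 of 20 genes fell and 3 rose after Llgl1/2 siRNA. These are 15% each, against 18.1% and 22.1% of all tested genes. In the Yap group 4 fell and 4 rose, 20% each, against 27.5% and 20.5%. Each share was below that of all tested genes. The polymerase III repressor Maf1 rose in both, at 0.31 ± 0.07 (limma adjusted p = 0.0049) after Llgl1/2 siRNA and 0.37 ± 0.07 (limma adjusted p = 0.0011) after Yap siRNA. Polr3b fell in both. Its change was -0.48 ± 0.11 (limma adjusted p = 0.0044) after Llgl1/2 siRNA and -0.53 ± 0.11 (limma adjusted p = 0.0019) after Yap siRNA. Polr3d fell after Llgl1/2 siRNA, at -0.40 ± 0.07 (limma adjusted p = 0.00069). Its change after Yap siRNA was 0.17 ± 0.07 (limma adjusted p = 0.067). Polr3gl rose after Yap siRNA, at 0.62 ± 0.10 (limma adjusted p = 0.00017). Of 17 other genes for the mitochondrial ribosome, 6 rose (35.3%, against 22.1% of all tested genes) and none fell (against 18.1%) after Llgl1/2 siRNA. In the Yap group 3 rose and 3 fell, 17.6% each, against 20.5% and 27.5%. Ngrn rose in both, at 0.56 ± 0.07 (limma adjusted p = 5.6e-05) after Llgl1/2 siRNA and 0.30 ± 0.07 (limma adjusted p = 0.0041) after Yap siRNA. So did Trub2, at 0.27 ± 0.08 (limma adjusted p = 0.017) after Llgl1/2 siRNA and 0.46 ± 0.08 (limma adjusted p = 0.00039) after Yap siRNA. Ybey went opposite ways, at 0.31 ± 0.11 (limma adjusted p = 0.037) after Llgl1/2 siRNA and -0.50 ± 0.11 (limma adjusted p = 0.0022) after Yap siRNA.

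The MYC network is listed because MYC and its relatives bind the E-box. Myc had 21.2, 23.1 and 22.6 FPKM after Llgl1/2 siRNA, 37.9, 33.7 and 32.5 FPKM after Yap siRNA, and 38.7, 40.8 and 32.98 FPKM after control siRNA. The Llgl1/2 libraries were below all others, and the Yap libraries overlapped the controls. Its change was -0.72 ± 0.09 (limma adjusted p = 4.2e-05) after Llgl1/2 siRNA and -0.11 ± 0.09 (limma adjusted p = 0.36) after Yap siRNA, and the difference between the knockdowns was -0.62 ± 0.09 (limma adjusted p = 0.00011). Mlx, a partner of related E-box factors, had 20.1, 21.6 and 22.9 FPKM after Llgl1/2 siRNA, 37.8, 29.1 and 32.9 FPKM after Yap siRNA, and 44.7, 42.97 and 43.1 FPKM after control siRNA, with a fall in both knockdowns. Its log2 change was -0.98 ± 0.09 (limma adjusted p = 3.7e-06) after Llgl1/2 siRNA and -0.39 ± 0.09 (limma adjusted p = 0.0034) after Yap siRNA. The MYC antagonist Mxi1 rose in both knockdowns, with log2 changes of 0.37 ± 0.08 (limma adjusted p = 0.0021) after Llgl1/2 siRNA and 0.64 ± 0.08 (limma adjusted p = 2e-05) after Yap siRNA. Mxd4, another antagonist, was at 0.13 ± 0.11 (limma adjusted p = 0.39) after Llgl1/2 siRNA and 0.61 ± 0.11 (limma adjusted p = 0.00056) after Yap siRNA. Of the 9 genes of the network tested, 1 rose (11.1%, against 22.1% of all tested genes) and 3 fell (33.3%, against 18.1%) after Llgl1/2 siRNA. In the Yap group 3 rose (33.3%, against 20.5%) and 1 fell (11.1%, against 27.5%).

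Markers of the other cell types that heart cultures can hold were counted and summed as well. Over all tested genes, 22.1% rose and 18.1% fell after Llgl1/2 siRNA, and 20.5% rose and 27.5% fell after Yap siRNA. For the endothelium, 10 of 11 tested markers fell and none rose after Llgl1/2 siRNA, 5 fell and 1 rose after Yap siRNA, and their summed level was 280.0 to 295 FPKM after Llgl1/2 siRNA, 422 to 486 FPKM after Yap siRNA and 569 to 677 FPKM after control siRNA. For macrophages and other leukocytes, 6 of 11 fell and none rose after Llgl1/2 siRNA and 4 fell and 2 rose after Yap siRNA, at 143 to 189 FPKM after Llgl1/2 siRNA, 187 to 246 FPKM after Yap siRNA and 195 to 243 FPKM after control siRNA. The smooth muscle and pericyte sum was 2405 to 2882 FPKM after Llgl1/2 siRNA, 1462 to 1537 FPKM after Yap siRNA and 3672 to 3790 FPKM after control siRNA, with 3 of 9 markers higher and 2 lower after Llgl1/2 siRNA and 4 higher and 4 lower after Yap siRNA. For cardiac fibroblasts the sums were 1002 to 1107 FPKM after Llgl1/2 siRNA, 980.0 to 1108 FPKM after Yap siRNA and 1059 to 1379 FPKM after control siRNA, with 1 of 12 higher and 4 lower after Llgl1/2 siRNA and 4 higher and 2 lower after Yap siRNA.

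Epicardial markers summed to 42.2 to 53.7 FPKM after Llgl1/2 siRNA, 10.1 to 14.8 FPKM after Yap siRNA and 25.0 to 33.6 FPKM after control siRNA, with 2 of 5 higher after Llgl1/2 siRNA and 3 of 5 lower after Yap siRNA. Erythroid markers summed to 117 to 180.0 FPKM after Llgl1/2 siRNA, 84.3 to 145 FPKM after Yap siRNA and 148 to 179 FPKM after control siRNA. Neural and Schwann markers summed to 5.94 to 7.92 FPKM after Llgl1/2 siRNA, 3.85 to 5.93 FPKM after Yap siRNA and 3.65 to 4.80 FPKM after control siRNA. Of the cardiomyocyte markers, 9 of 13 rose and 1 fell after Llgl1/2 siRNA, and 11 rose and 2 fell after Yap siRNA. None of the listed markers that are in the table was at 0 in all libraries. In bulk libraries, fewer cells of a type and less RNA per cell cannot be told apart, and the part of these markers in the changes of the ribosome biogenesis factors was not tested.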

How the data were processed

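The 9 poly-A RNA libraries of rat cardiomyocytes were made for BGISEQ-500, per the labels' protocols. The authors deposited FPKM values per gene in one table, with 2 decimals. Bowtie2, HISAT and rn6 are named in the submitters' processing notes, without version or role, and the quantification tool is not given in the sources used here. The deposited FPKM hold no read totals, so the depth behind a value is unknown and no counting interval is given. One column of per-sample values matches no sample by name and was not used. It equals Llgl1/2 library 2 in all 14636 rows, and 1 such column exists. Symbols read as dates or missing (31) were replaced by gene ID from the RefSeq GRCr8 table for 29 rows. That table held 14516 of the IDs.

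From the FPKM, log2(FPKM + 1) was fitted with limma 3.58.1 (R 4.3.3, trend and robust) over all 9 libraries in 3 groups (6 residual degrees of freedom), for the 10789 genes at or above 1 FPKM in 3 or more libraries, with Benjamini-Hochberg adjustment over all of them and a threshold of 0.05. Figures were drawn with matplotlib 3.10.9 and tables with pandas 2.3.3 and numpy 2.4.6, in Python 3.11.15. The fit was tested on simulated data with known changes. Motifs were searched as exact letters on both strands of RefSeq GRCr8 promoter windows. Genes were given per library when they were core members of a role or among the 8 largest rises or 8 largest falls in a comparison among called genes with no overlap between groups. Naf1, Rpl7, Myc and Mlx, also given per library, were chosen after their values were seen. Of the other pathway genes, the 2 of smallest p per list and comparison were eligible for naming, and the remaining members named were chosen after their values were seen. Members and lists were chosen with earlier results of these data known. The values of 1 of the 51 genes are not reported here, though it is in the counts and medians.

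Libraries of different groups share numbers. Over the tested genes, deviations from the group means correlated between same-numbered libraries at 0.119 to 0.236 for Llgl1/2 and Yap siRNA, over 0.1 in all 3 pairs, so for that comparison the numbers were taken to pair the libraries. The main fit did not use this pairing, so values between the knockdowns are unpaired except where a block is named. The correlations were 0.01 to 0.115 for Llgl1/2 and control and 0.043 to 0.171 for Yap and control, which did not reach the mark of 0.1 in every pair. Alternatives were another pseudocount (0.1), no filter, median-ratio or quantile scaling, plain limma, fits of 6 libraries, a replicate block, a threshold of 0.01 and leaving out each library.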

Additional observations from a re-analysis of the deposited data

How the results depend on the processing

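Of the 20 factors called after Llgl1/2 siRNA, the 28 called after Yap siRNA and the 20 called between the knockdowns, 8, 16 and 12 were called under all 17 alternatives, and no call changed direction under any of them. Such stable calls were not counted over all tested genes. Leaving out 1 library at a time gave 1 to 4 higher and 8 to 21 lower for Llgl1/2 siRNA against control, 5 to 12 higher and 16 to 22 lower for Yap siRNA against control, and 5 to 10 higher and 7 to 12 lower for Llgl1/2 against Yap siRNA, where the median log2 difference ran from -0.02 to 0.05. Calls over all tested genes moved as well. For Llgl1/2 siRNA against control they were 1822 to 2578 higher and 1479 to 2102 lower, against 2380 and 1958 with all libraries. At an adjusted p of 0.01 the counts were 1 higher and 7 lower after Llgl1/2 siRNA, 3 higher and 13 lower after Yap siRNA, and 5 higher and 7 lower for Llgl1/2 against Yap siRNA. A fit of only the 6 libraries compared gave 5 higher after Yap siRNA. Median-ratio and quantile scaling both turned the median difference between Llgl1/2 and Yap siRNA to -0.05, and over all genes that comparison had 2317 higher and 2603 lower with median-ratio scaling, against 3024 higher and 2046 lower as deposited. The cause was not tested. With replicate number as a block, the counts were 3 higher and 20 lower after Llgl1/2 siRNA, 10 higher and 24 lower after Yap siRNA, and 11 higher and 13 lower between the knockdowns. The calls over all tested genes grew too, to 2596 higher and 2125 lower after Llgl1/2 siRNA. Beside the 4 blocked values printed above, the block changed no call between the knockdowns. Against control the mark was not reached in every pair, so whether the numbers pair those libraries is not settled. With the block, Exosc5, Utp14a and Suv39h1 also fell after Llgl1/2 siRNA (limma adjusted p = 0.015, 0.04 and 0.047). After Yap siRNA, Wdr55, Dis3, Exosc5 and Nip7 also fell (limma adjusted p = 0.02, 0.03, 0.032 and 0.038). Ebna1bp2 and Utp11 also rose (limma adjusted p = 0.018 and 0.037). Over all groups a library correlated best with its own number in 15 of 18 checks, a hint from the data and not from the design. Setting aside LOC367195 left 19 lower after Yap siRNA and 8 higher between the knockdowns. The FPKM carry no read depth, so precision rests on 3 libraries per group.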
